A study of Arabidopsis thaliana with 16 samples.

Results

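Plant microRNA genes (MIR genes) were described by the 2 histone marks of the Polycomb system that the study profiled. The members are all annotated nuclear genes of Arabidopsis thaliana whose symbol is MIR followed by a number, 326 of 33056 nuclear genes. Of these, 237 lie clear of every protein-coding gene (outside), 71 lie whole within one (inside) and 18 overlap one in part. For each member the number of base pairs under broad peaks was counted over the annotated gene and the 1 kb upstream of it, which is called the window here.

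The plants were seedlings 12 days after germination, grown under the same conditions, either of Col-0 (wild type) or of the mutant ubp5. The mutant line carries a deletion in UBP5, a gene for a ubiquitin-specific protease acting on histone H2A, made by CRISPR/Cas9 according to the study. Chromatin immunoprecipitation sequencing of monoubiquitinated H2A (H2Aub) gave 3 libraries per genotype and that of H3K27me3 gave 2 per genotype, which the study calls biological replicates. The question is where the marks lie when this protease is missing, asked here of the MIR genes. All ubp5 libraries are from 1 mutant line, and each holds whole seedlings, so that a mark in a few cells and a weak mark in all cells cannot be told apart. The peak lists hold no expression values, so the tissue could not be checked against marker genes.

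MicroRNA genes are transcribed by RNA polymerase II into a primary transcript that folds into a hairpin, from which DCL1 cuts the mature RNA that guides AGO1 to complementary messages. Conserved plant families act mostly on transcription factors of organ formation and phase change or on genes of nutrient use. Polycomb repressive complex 1 ubiquitinates H2A and Polycomb repressive complex 2 methylates H3K27, and genes held silent in a given tissue often carry H3K27me3 over their whole length.

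The mature RNAs of the members on which the results turn are shown 5′ to 3′, read from the RefSeq TAIR10.1 genome, with the seed (bases 2 to 8) in capitals, since families that share a seed can be compared at several loci. The first group regulates phase change, organ polarity and leaf growth.
miR156a-5p: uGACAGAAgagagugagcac
miR172b-3p: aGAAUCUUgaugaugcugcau
miR172d-3p: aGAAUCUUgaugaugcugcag
miR165a-3p: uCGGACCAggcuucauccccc
miR166a-3p: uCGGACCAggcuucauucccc
miR319a: uUGGACUGaagggagcucccu
miR159c: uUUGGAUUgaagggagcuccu
miR164a: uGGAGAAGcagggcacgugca
The second group comes from loci whose peaks differed most between the genotypes, carried both marks throughout, or belong to the nutrient families.
miR169i: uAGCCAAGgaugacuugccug
miR169f-5p: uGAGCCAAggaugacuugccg
miR5664: aUAGUCAAuuuuaucggucug
miR826a: uAGUCCGGuuuuggauacgug
miR826b: uGGUUUUGgacacgugaaaau
miR395b: cUGAAGUGuuuggggggacuc
miR399d: uGCCAAAGgagauuugccccg
miR398c-3p: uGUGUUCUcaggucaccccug

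The 3 MIR319 genes, with the seed UGGACUG, were all marked with H3K27me3 in both genotypes. The seed AGCCAAG of miR169i was shared by 9 outside genes, 7 of them marked with H3K27me3 in both genotypes. The seed CGGACCA of miR165 and miR166 was shared by 9 outside genes, of which 5 were marked. The seed GACAGAA of miR156a-5p was shared by 7, of which 5 were marked. The seed GAAUCUU of miR172 was shared by 5, of which 3 were marked, and the seed GCCAAAG of miR399 was shared by 6, of which 3 were marked. In 5 of these 6 seed groups, genes that give the same seed thus did not all carry the mark. These groups were picked from conserved families and do not stand for all seeds. In both genotypes H3K27me3 marked 0 of 5 genes with AUGAGGA (MIR854), 0 of 6 with GAUGUGG (MIR8167) and 0 of 5 with UUUGAGU (MIR5645). It marked 2 of 4 with GAGCCAA (miR169f-5p) and 3 of 3 with UGACAGA (miR157a-5p). Of all nuclear genes, 25.2% were marked with H3K27me3 in Col-0 and 24.7% in ubp5.

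Peaks were used where their deposited score was over 30, that is where the reported −log10 q was about 3 or more. A gene is called marked in a genotype when at least 1 bp of its window lay under such a peak in at least 2 libraries of that genotype. Between 8457 and 19014 H2Aub peaks passed per library, covering 10.9 to 27.8 Mb, and between 4913 and 5746 H3K27me3 peaks, covering 14.2 to 16.6 Mb. The covered length of H2Aub was lowest in Col-0 replicate 1 (11.6 Mb) and ubp5 replicate 2 (10.9 Mb) and highest in ubp5 replicate 3 (27.8 Mb). The number of outside MIR genes with an H2Aub peak was likewise lowest in the first 2 of these libraries (29 and 34) and highest in the last (118). The part of covered length in each H2Aub result was not tested beyond the alternatives given with it. The annotated span of an outside MIR gene is its hairpin, with a median of 143 bp against 1807 bp over all nuclear genes, so windows of all genes are longer (median 2807 bp against 1143 bp) and more likely to meet a peak. For this reason the single base at the annotated start was compared too. For a MIR gene it is the 5′ end of the hairpin, not a mapped transcription start.

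H3K27me3 lay over the hairpin start of about 1 in 3 outside MIR genes, and more often than over the starts of all genes in each of the 4 libraries. The share of outside MIR genes with a peak at the start was 34.2% and 37.1% for Col-0, and 33.3% and 32.1% for ubp5. Over all nuclear genes it was 13.4% and 15.4% for Col-0, and 12.4% and 13.0% for ubp5. The inside MIR genes lay between, at 19.7% to 21.1%. Genes are not replicates, so this difference between gene groups is given as a value with no test. The size of the difference depends on the base chosen. In protein-coding genes the mean H3K27me3 cover in Col-0 was 14.4% at the start and 19.1% at 400 bp downstream. Over the annotated gene alone, 31.6% of outside MIR genes and 19.7% of all nuclear genes, which are longer, were marked in Col-0.

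**Figure D1:**
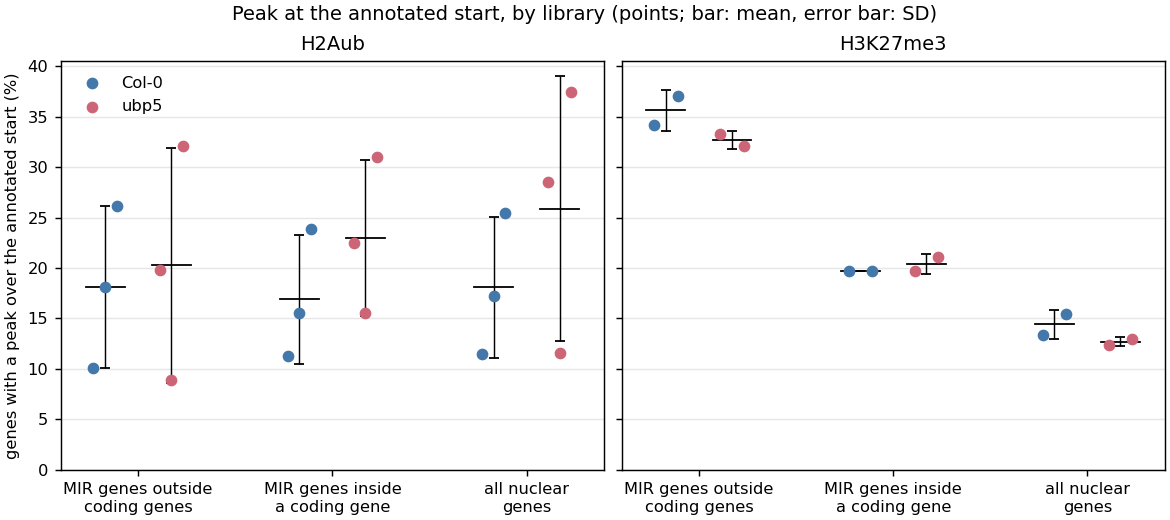
Share of genes (%, vertical axis) with a peak over the single base at the annotated start, for MIR genes outside coding genes, MIR genes inside a coding gene and all nuclear genes. Each point is a library, blue for Col-0 and red for ubp5, with the mean as a bar and the SD as error bar (n = 3 for H2Aub, n = 2 for H3K27me3). For H3K27me3 the outside MIR genes sit at 32.1% to 37.1% and all genes at 12.4% to 15.4%; for H2Aub the groups overlap.

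Over the whole window, 84 of the 237 outside MIR genes (35.4%) were marked with H3K27me3 in Col-0, where 25.2% of all nuclear genes were. In ubp5, 86 (36.3%) were marked, where 24.7% of all nuclear genes were. The marked genes fell into 71 separate loci in Col-0 and 75 in ubp5, because several members are neighbours whose windows touch. Where H3K27me3 was present it often covered most of the window: the median covered share among marked genes was 100% in Col-0 and 97.4% in ubp5. The window was wholly covered in every library of the genotype on 44 of 84 marked genes in Col-0 and 40 of 86 in ubp5, while 18 and 25 were under 50% covered.

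H2Aub was less frequent in the windows of outside MIR genes than in those of genes at large, while at the start base in Col-0 the shares lay close together. In Col-0, 56 outside MIR genes (23.6%) were marked, where 50.1% of all nuclear genes were. In ubp5, 71 of the 237 were marked, where 68.4% of all nuclear genes were. At the start base, 43 of 237 (18.1%) were marked in Col-0 against 17.5% of all genes, and 47 (19.8%) in ubp5 against 27.8%. The comparison depends on the base chosen. In protein-coding genes the mean H2Aub cover in Col-0 was 18.7% at the start and 38.5% at 400 bp downstream. In outside MIR genes it was 18.1% at the start and 18.4% at its highest point. Over the annotated gene alone, 19.0% of outside MIR genes and 42.5% of all nuclear genes, which are longer, were marked in Col-0. H2Aub covered a smaller piece of the window than H3K27me3, with a median share of 39.4% among marked genes in Col-0 and 44.2% in ubp5.

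The windows of 37 outside MIR genes (15.6%) lay wholly under H3K27me3 in all 4 libraries, where 3.52% of all nuclear genes did, whose longer windows are harder to cover whole. Of the 37, 21 belong to conserved families in the role lists below. By mean covered length, MIR832, MIR5665, MIR858b, MIR863 and MIR5662 led. Of these, MIR832 (1333 bp), MIR858b (1303 bp), MIR863 (1303 bp) and MIR5662 (1287 bp) were covered over their whole window in all 4 libraries, while MIR5665 had 1364 and 980 bp of 1479 bp in Col-0 and 1479 and 1464 bp in ubp5. This order follows the length of the annotated hairpin as much as the mark, since a full window of a longer hairpin counts more. miR858 acts on MYB factors of phenylpropanoid synthesis.

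For H2Aub, MIR398c, MIR164a, MIR864, MIR447b and MIR861 had the longest mean cover. MIR398c, one of the sources of the copper-regulated miR398, had all 1115 bp of its window covered in every one of the 6 H2Aub libraries and no H3K27me3 in any library. MIR164a, whose product acts on CUC genes of organ boundaries, had 1113 bp covered in every H2Aub library, and 548 and 0 bp of H3K27me3 in Col-0 and 0 and 218 bp in ubp5. MIR864 had its 1092 bp window covered in the 6 H2Aub libraries. MIR447b and MIR861 were at 0 bp of H2Aub in ubp5 replicate 2, a library with low cover, while MIR447b had 1160 to 1236 bp and MIR861 had 1132 bp in each of the other libraries.

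**Figure D2:**
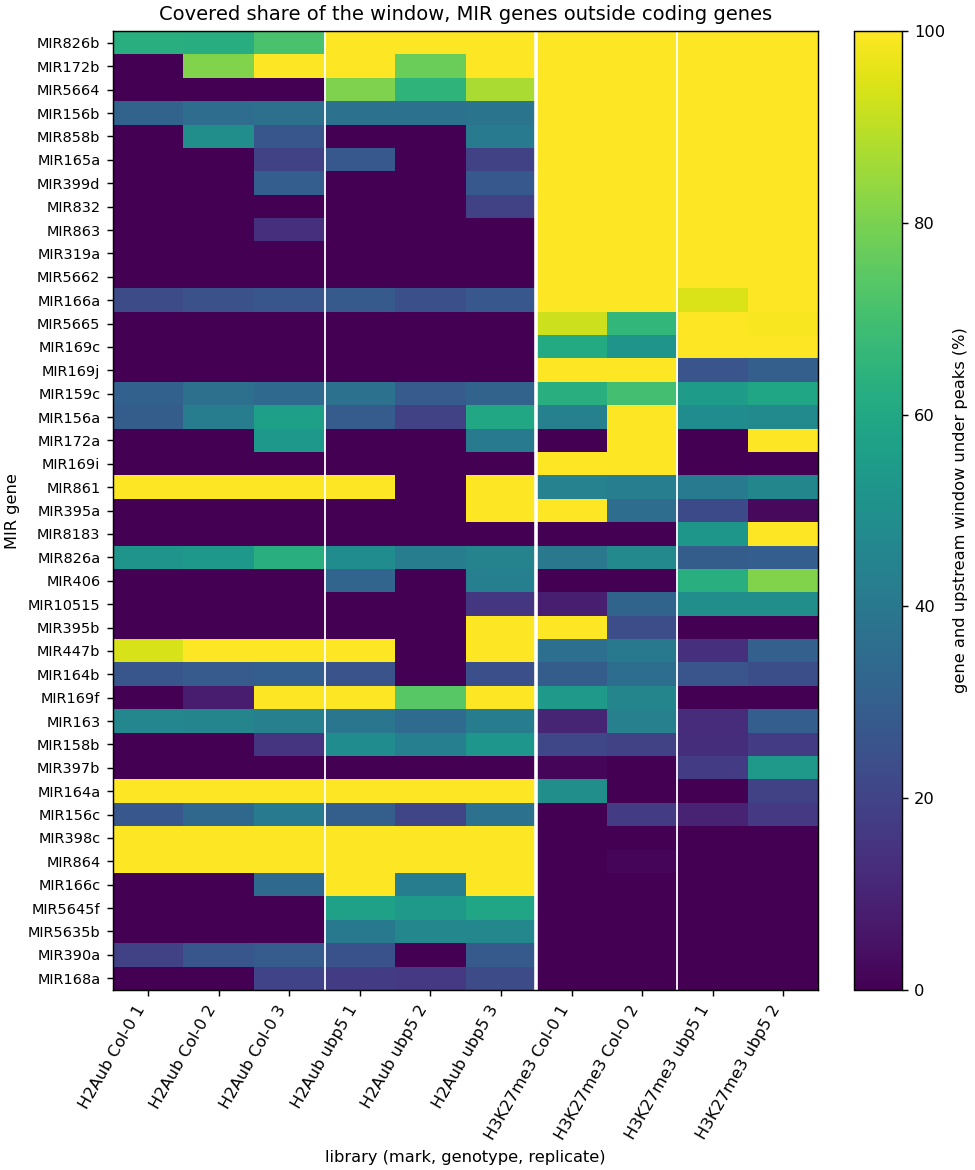
Percent of the window (annotated gene and 1 kb upstream) under peaks, as colour from 0 to 100, for the named outside MIR genes (rows) in each of the 10 libraries (columns, mark, genotype and replicate). Rows are ordered by H3K27me3 cover, then by H2Aub cover. The upper rows are full in the 4 H3K27me3 libraries, some with H2Aub (MIR826b) and some with none (MIR319a). MIR398c and MIR164a are full in the 6 H2Aub libraries.

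Both marks were present on 28 outside MIR genes in Col-0 (11.8%), where 17.1% of all nuclear genes had both. In ubp5 it was 29 (12.2%), where 18.7% of all nuclear genes had both. The 2 sets shared 22 genes, 78.6% of the Col-0 set and 75.9% of the ubp5 set. Among the H3K27me3-marked outside MIR genes in Col-0, 28 of 84 (33.3%) had H2Aub, against 67.9% of all H3K27me3-marked genes, whose windows are longer. In ubp5 these shares were 33.7% and 75.5%. A peak over at least 50% of the window was found for both marks on 8 genes (3.38%) in Col-0 and 6 (2.53%) in ubp5, where 4.43% and 4.62% of all nuclear genes had it.

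On the genes with both marks the peaks mostly lay on the same bases. Counting bases under a peak in at least 2 libraries, the median shared length was 419.5 bp in Col-0 (n = 28) and 325 bp in ubp5 (n = 29). The H2Aub stretch lay wholly within the H3K27me3 stretch on 18 of the 28 genes in Col-0 and on 16 of the 29 in ubp5, while 2 and 3 genes shared no base. Where H3K27me3 fills the window, as at MIR156b, MIR172b and MIR394a in both genotypes, any H2Aub in the window must lie within it. Peak overlap in bulk chromatin does not show that both marks sit on the same nucleosomes.

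MIR156a, MIR156b, MIR159c, MIR163, MIR166a, MIR826a, MIR826b and MIR865 had both marks in all 10 libraries, 3.38% of the outside MIR genes, where 8.26% of all nuclear genes did. MIR156a is a main source of miR156, which keeps SPL factors low in the juvenile phase. Its window of 1123 bp had 331, 476 and 636 bp of H2Aub in Col-0 and 325, 222 and 672 bp in ubp5, with 488 and 1123 bp of H3K27me3 in Col-0 and 545 and 532 bp in ubp5. The genotypes overlap at MIR156a for both marks.

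MIR156b had 377, 421 and 438 bp of H2Aub in Col-0 and 441, 442 and 455 bp in ubp5, under H3K27me3 that filled all 1183 bp in the 4 libraries. MIR166a, whose product limits HD-ZIP III factors to the upper side of the leaf, had 274, 288 and 313 bp of H2Aub in Col-0 and 330, 285 and 318 bp in ubp5. MIR159c, a member of the family that acts on GAMYB-like factors, had 381, 451 and 418 bp of H2Aub in Col-0 and 464, 353 and 392 bp in ubp5. In these 3 genes a short H2Aub stretch thus lay in a window with more H3K27me3, and the H2Aub ranges of the genotypes overlapped at MIR166a and MIR159c but not at MIR156b.

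MIR826a and MIR826b are annotated on opposite strands of the same stretch of chromosome 4 (TAIR10.1 positions 1340479 to 1340656 and 1340521 to 1340614), so they share the hairpin bases and differ in the side taken as upstream. H2Aub of MIR826b was 687, 682 and 781 bp in Col-0 and 1094 bp, the whole window, in each ubp5 library. H2Aub of MIR826a was 612, 628 and 740 bp in Col-0 and 572, 493 and 525 bp in ubp5. In ubp5 the cover was thus longer for MIR826b and shorter for MIR826a, and the pair counts as 1 locus. miR826 acts on AOP2, a gene of glucosinolate synthesis.

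In contrast, 30 outside MIR genes (12.7%) had H3K27me3 in all 4 libraries and no H2Aub in any of the 6, where 2.7% of all nuclear genes did. Shorter windows meet an H2Aub peak less often, and the part of window length in this difference was not tested. Of the 30, 20 belong to the role lists. The 3 MIR319 genes, whose product acts on TCP factors of leaf growth, are among them. MIR319a had all 1176 bp and MIR319c all 1199 bp covered by H3K27me3 in the 4 libraries, and MIR319b had 1159 and 1172 bp in Col-0 and 1172 bp in both ubp5 libraries. MIR156f, MIR157a, MIR165b, MIR172c, MIR172d, MIR394b and MIR169k to MIR169n showed the same combination. The reverse, H2Aub in all 6 libraries with H3K27me3 in none, was found on MIR159b, MIR398c and MIR847 (1.27%), where 12.6% of all nuclear genes had it. No H2Aub peak means that none passed the deposited lists, and read depth limits this most in the libraries with low cover.

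The members were next grouped by the known role of their family. Each of the marks was more frequent over the 88 outside genes of the 4 role lists than over the 149 of other families, many of which are young or lineage-specific. In Col-0, H3K27me3 marked 46 of 88 (52.3%) against 38 of 149 (25.5%), and H2Aub marked 30 of 88 (34.1%) against 26 of 149 (17.4%). In ubp5 these were 45 (51.1%) against 41 (27.5%) and 35 (39.8%) against 36 (24.2%). At the hairpin start the other families were at 20.1% for H3K27me3 in Col-0, against 13.0% of all genes. Over the window they were at 25.5% against 25.2% of all genes, and over the annotated gene alone at 20.1% against 19.7%. Windows and annotated genes are longer over all genes. The higher share of H3K27me3 in the role lists held in each library, where 51.1% to 61.4% of the listed genes and 28.2% to 34.2% of the others had a peak in the window. Neighbours were counted here as separate genes, and MIR169i to MIR169n of the role lists lay under a single H3K27me3 peak in Col-0. In 18 outside members, all of other families, under 90% of the 100-base stretches of the window were unique in the nuclear genome. The part of either in these differences was not tested.

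Among the 15 outside genes of developmental timing (MIR156, MIR157 and MIR172), 11 had H3K27me3 in Col-0 and 12 in ubp5. H2Aub was on 7 and 6 of them, and 5 had both marks in each genotype. Of the 50 genes of organ patterning and growth, 27 had H3K27me3 in Col-0 and 25 in ubp5, while 20 and 24 had H2Aub. In the 17 genes of the nutrient and copper response, 8 had H3K27me3 in each genotype and 2 had H2Aub. None of the 6 genes in the list named silencing machinery (MIR162, MIR168, MIR173 and MIR403) had H3K27me3 in any library, while for H2Aub it was 1 gene in Col-0 and 3 in ubp5. Over all nuclear genes, H3K27me3 was on 25.2% in Col-0 and 24.7% in ubp5, and H2Aub on 50.1% and 68.4%. Both marks were on 17.1% and 18.7% of them, and 21.4% had H2Aub only in ubp5. The family counts below are to be read beside these shares, which come from longer windows.

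**Figure D3:**
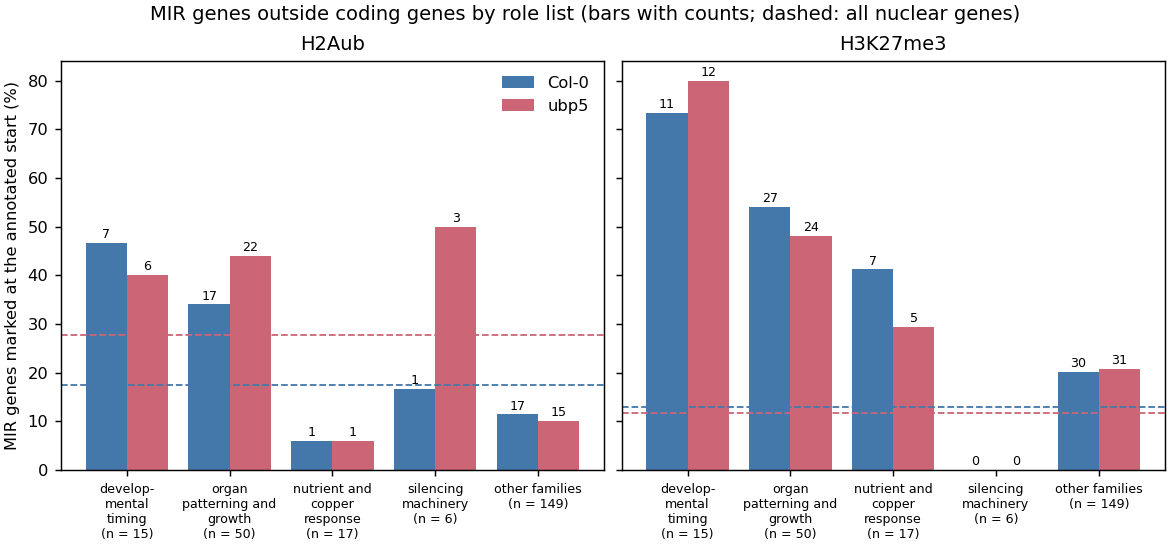
Percent of outside MIR genes marked at the annotated start (vertical axis) by role list, with the count above each bar and n under it, blue for Col-0 and red for ubp5. Dashed lines give all nuclear genes in the same genotype. For H3K27me3, developmental timing has 11 of 15 genes in Col-0 and 12 in ubp5, and the silencing machinery has 0 of 6 in both.

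Within the MIR156 family, 6 genes lie outside coding genes, and 4 had H3K27me3 in Col-0 and 5 in ubp5. MIR156c had 299, 368 and 453 bp of H2Aub in Col-0 and 336, 229 and 415 bp in ubp5. Its H3K27me3 was 0 and 190 bp in Col-0 and 108 and 185 bp in ubp5, so that a single Col-0 library set its change of call. MIR156h had no H3K27me3 in any library.

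In the MIR172 family, which acts on AP2-like factors, 3 of 5 outside genes had H3K27me3 in each genotype. MIR172b had all 1095 bp under H3K27me3 in the 4 libraries, with H2Aub at 0, 889 and 1095 bp in Col-0 and 1095, 847 and 1095 bp in ubp5. MIR172a had H3K27me3 over 0 and 1102 bp in Col-0 and over 0 and 1102 bp in ubp5. At MIR172a the 2 replicates of a genotype differed by the whole window and the genotypes did not differ.

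MIR165a and MIR165b had H3K27me3 in all 4 libraries, over 1111 bp at MIR165a in each. In the MIR166 family 3 of 7 outside genes were marked with it in each genotype, while 1 had H2Aub in Col-0 and 4 did in ubp5. Of all nuclear genes, 21.4% were marked with H2Aub only in ubp5. All 3 MIR164 genes had H2Aub in both genotypes, and 2 of them had H3K27me3. In the MIR399 family, which targets PHO2 under phosphate starvation, MIR399d, MIR399e and MIR399f, neighbours on chromosome 2, had H3K27me3 in all 4 libraries, while MIR399a, MIR399b and MIR399c had no peak of either mark. MIR399d was covered over 1100 bp by H3K27me3 in every library, and had H2Aub only in replicate 3 of each genotype, at 330 bp in Col-0 and 303 bp in ubp5.

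Of the 6 MIR395 genes, which act in sulfate assimilation, 5 had H3K27me3 in Col-0 and 4 in ubp5, and none was marked with H2Aub. MIR390a, whose product starts tasiRNA formation with AGO7, had no H3K27me3, with 219, 298 and 321 bp of H2Aub in Col-0 and 280, 0 and 314 bp in ubp5. MIR168a, which targets AGO1, had no H3K27me3 either, with 0, 0 and 227 bp of H2Aub in Col-0 and 202, 187 and 263 bp in ubp5.

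Around the hairpin start, H3K27me3 over the role lists formed a broad rise from 3 kb upstream to 3 kb downstream with its top at the hairpin. The mean cover at the start was 55.7% ± 4.81 (SD, n = 2) for Col-0 seedlings and 48.9% ± 1.63 (SD, n = 2) for ubp5. H2Aub over the same genes formed a narrower rise, highest 100 bp downstream of the start, at 32.2% ± 15.2 (SD, n = 3) for Col-0 seedlings and 34.9% ± 19.3 (SD, n = 3) for ubp5. In protein-coding genes the highest H2Aub point was 400 bp downstream, at 38.5% ± 11.1 (SD, n = 3) for Col-0 seedlings and 55.9% ± 18.9 (SD, n = 3) for ubp5. The SDs of H2Aub exceed the distance between genotypes in the MIR genes. In protein-coding genes the SD of ubp5 exceeds it too, while that of Col-0 does not.

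**Figure D4:**
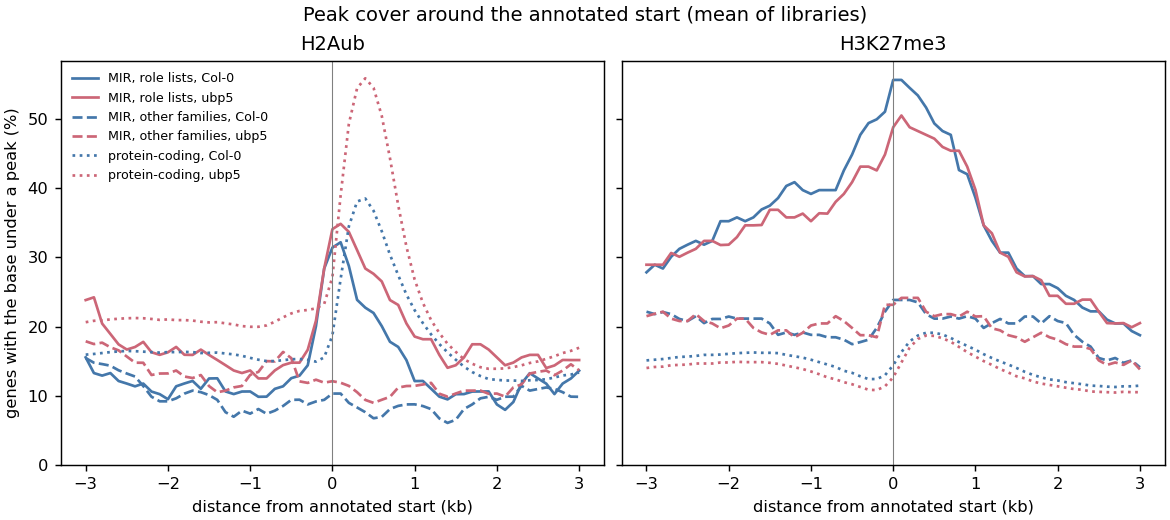
Percent of genes with the base under a peak (vertical axis) against distance from the annotated start in kb (horizontal axis, negative is upstream), as the mean over libraries, blue for Col-0 and red for ubp5. Solid lines are outside MIR genes of the role lists, dashed lines those of other families, dotted lines protein-coding genes. H3K27me3 of the role lists is at 55.7% (Col-0) and 48.9% (ubp5) at the start, and H2Aub of protein-coding genes is highest at 400 bp.

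Of the distinct H3K27me3 peaks over outside MIR genes, between 43.4% and 46.2% per library touched no protein-coding gene, and of the H2Aub peaks between 37.5% and 53.6%. The outside genes were chosen to lie clear of coding genes, so these shares are not set against those of all peaks. The remaining peaks over MIR genes also touched a coding gene, so part of the cover cannot be told apart from that of a neighbour. Of the outside members, 165 had an upstream window clear of coding genes, and among these 63 (38.2%) had H3K27me3 and 34 (20.6%) had H2Aub in Col-0, close to the shares over all 237.

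A pair of short motifs known from Polycomb targets of Arabidopsis was counted in the 1 kb upstream of each gene, on either strand: the telobox AAACCCTA and the repeat GAGAGAGA. The telobox was present in 32 of 84 (38.1%) outside MIR genes with H3K27me3 in Col-0 and in 24 of 153 (15.7%) of those without, against 12.9% of all nuclear genes. The GAGA repeat was present in 23 of 56 (41.1%) outside MIR genes with H2Aub in Col-0 and in 32 of 181 (17.7%) of those without, against 14.7% of all nuclear genes. The shares in ubp5 were 37.2% and 15.9% for the telobox with and without H3K27me3, and 38.0% and 16.9% for the repeat with and without H2Aub. Over all nuclear genes the telobox was at 15.6% with H3K27me3 and 12.0% without, and the repeat at 15.3% with H2Aub and 14.1% without, in Col-0. By the other mark in Col-0 the outside MIR genes differed less, with the telobox in 28.6% with H2Aub and 22.1% without, and the repeat in 25% with H3K27me3 and 22.2% without. Over all nuclear genes the telobox was at 11.9% with H2Aub and 13.9% without, and the repeat at 13.0% with H3K27me3 and 15.3% without, both lower with the mark. For MIR genes the 1 kb upstream ends at the hairpin and not at a mapped transcription start, so their shares and those of all genes are not like for like. A match is a run of letters and not a bound site, and members of a family can share upstream sequence.

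The comparison of ubp5 with Col-0 was made over libraries. With 3 against 3 libraries the exact two-sided permutation test cannot give a p below 0.100, and with 2 against 2 not below 0.333, so no result could pass 0.05. The 10 comparisons tested had adjusted p (Benjamini-Hochberg) of 0.952 or 1.

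Of the 237 outside MIR genes, 29, 56 and 85 had an H2Aub peak in the window in Col-0 replicates 1 to 3. For ubp5 the counts were 71, 34 and 118, a difference in mean share of 7.45 percentage points (exact permutation p = 0.600, n = 3 and 3). The libraries of the genotypes overlapped, and without ubp5 replicate 3 the difference became -1.76. For the inside MIR genes the mean share was 29.1% ± 10.9 (SD, n = 3) in Col-0 against 38% ± 12.7 (SD, n = 3) in ubp5 (difference 8.92 points, exact permutation p = 0.5). That difference was 0.939 points with lists reduced to the smallest covered length of the mark, 2.82 without Col-0 replicate 1, 2.58 without ubp5 replicate 3 and 15.3 without ubp5 replicate 2. Relative to all genes of the same library, the outside share differed by 0.03 on the log2 scale (exact permutation p = 0.900, n = 3 and 3). At the start base this relative value was lower in every ubp5 library (mean difference -0.356, exact permutation p = 0.100, the smallest possible, n = 3 and 3), and its sign changed with the way windows were drawn.

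For H3K27me3 the share of outside MIR genes with a peak was 38.4% and 42.2% for Col-0, and 40.5% and 39.2% for ubp5 (difference -0.422 points, exact permutation p = 1, n = 2 and 2). The covered upstream length was 28.5% and 29.3% for Col-0, and 28.2% and 27.7% for ubp5 (difference -0.931 points, exact permutation p = 0.333, n = 2 and 2). The inside MIR genes were at 22.5% and 26.8% for Col-0, and 28.2% and 29.6% for ubp5 (difference 4.23 points, exact permutation p = 0.333, n = 2 and 2). The ubp5 libraries lay below those of Col-0 in the covered upstream length and above them in the inside share, each by a few points at most.

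By call, 24 outside MIR genes (10.1%) were marked with H2Aub only in ubp5, where 21.4% of all nuclear genes were, and 9 (3.80%) only in Col-0, where 3.14% of all nuclear genes were. For H3K27me3, 8 (3.38%) were marked only in ubp5, where 3.38% of all nuclear genes were, and 6 (2.53%) only in Col-0, where 3.84% of all nuclear genes were. When lists were reduced to the smallest covered length of the mark, 8 in place of 24 were marked with H2Aub only in ubp5. Of the 24, 4 (MIR158b, MIR165a, MIR166b and MIR5664) had H3K27me3 in both genotypes.

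The covered H2Aub length was higher in all 3 ubp5 libraries than in any of Col-0 at 9 outside MIR genes (3.80%), against 12.9% of all nuclear genes, and lower at 3 (1.27%), against 3.34%. For H3K27me3 it was higher at 8 (3.38%), against 4.50% of all nuclear genes, and lower at 21 (8.86%), against 11.0%. The shares of the MIR genes were at or below those of all genes in each direction, so the loci described next are the ones with the largest differences within a count that is not above the background.

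At MIR5664 on chromosome 1, H2Aub was 0 bp in each Col-0 library and 978, 789 and 1062 bp in ubp5, of a window of 1214 bp that H3K27me3 filled in all 4 libraries. Its hairpin (TAIR10.1 chr1:17386795-17387008, plus strand, mature RNA in capitals) is shown because its upstream side had the largest difference of this kind.
MIR5664 hairpin: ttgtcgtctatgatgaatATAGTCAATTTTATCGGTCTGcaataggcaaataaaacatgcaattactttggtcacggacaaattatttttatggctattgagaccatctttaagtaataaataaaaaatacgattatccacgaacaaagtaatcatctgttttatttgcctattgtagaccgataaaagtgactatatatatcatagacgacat
The H2Aub peaks of MIR5664 were 1068, 821 and 1149 bp wide with mean fold over input of 2.38, 2.54 and 2.38. They each touched 1 coding gene too, and the peak of replicate 2 had a −log10 q of 3.19, just past the threshold. With lists reduced to the smallest covered length, a peak was found only in replicate 2 of ubp5 (789 bp). The H3K27me3 peaks over MIR5664 were 12048 and 12465 bp wide in Col-0 and 9421 and 9386 bp in ubp5.

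MIR166c had 0, 0 and 390 bp of H2Aub in Col-0 and 1139, 483 and 1139 bp in ubp5, with no H3K27me3. Under the reduced lists MIR166c had 0 bp in Col-0 and 1139, 483 and 1139 bp in ubp5. MIR5645f had 859, 812 and 883 bp and MIR5635b 478, 545 and 546 bp of H2Aub in ubp5, with 0 bp in Col-0 for both. At MIR5645f and MIR5635b the peak of ubp5 replicate 3 was absent under the reduced lists, and with a score over 60 ubp5 replicate 2 was at 0 bp at both and at MIR5664. MIR158b had 0, 0 and 165 bp in Col-0 and 527, 469 and 568 bp in ubp5. At MIR158b the genotypes overlapped in both alternatives, since the reduced lists left only ubp5 replicate 2 (469 bp) and a score over 60 put that library at 0 bp.

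H2Aub was lower in every ubp5 library at MIR163, MIR164b and MIR826a, by smaller amounts. MIR163 had 618, 607 and 582 bp in Col-0 and 520, 465 and 563 bp in ubp5. MIR164b had 310, 330 and 343 bp in Col-0 and 293, 0 and 280 bp in ubp5, where the 0 is in the library with the smallest covered length. miR163 acts on methyltransferase genes of the salicylate methyltransferase family.

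The largest difference towards less H3K27me3 in ubp5 was at one end of a cluster of 6 MIR169 genes on chromosome 3, whose products act on NF-YA factors. MIR169i had 1206 bp covered in both Col-0 libraries and 0 bp in both ubp5 libraries. MIR169j had 1221 bp in both Col-0 libraries and 321 and 369 bp in ubp5. The neighbours MIR169k, MIR169l and MIR169m were covered over their whole windows of 1213, 1211 and 1212 bp in all 4 libraries, and MIR169n over 1215 bp in 3 and 1049 bp in ubp5 replicate 1.

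A single peak spanned the 6 hairpins in Col-0, with a width of 13378 bp in replicate 1 and 13826 bp in replicate 2. In ubp5 the peak began at position 9873233 in replicate 1 and 9873185 in replicate 2 of chromosome 3, past the hairpins of MIR169i and MIR169j, where it began at 9871761 and 9871391 in Col-0. It was 6356 and 11784 bp wide, with mean folds over input of 2.45 and 3.20, where Col-0 had 2.89 and 3.98. The values of MIR169i and MIR169j were the same with every deposited peak, with a score over 60 and with reduced lists. None of the 6 genes had H2Aub in any library. The hairpin of MIR169i (TAIR10.1 chr3:9871960-9872165, minus strand, mature RNA in capitals) lies at the end without a peak in ubp5.
MIR169i hairpin: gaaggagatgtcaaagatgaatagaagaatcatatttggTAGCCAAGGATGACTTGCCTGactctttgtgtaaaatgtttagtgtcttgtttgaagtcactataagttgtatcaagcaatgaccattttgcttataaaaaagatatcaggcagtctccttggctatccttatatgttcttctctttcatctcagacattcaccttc
The mature RNAs of MIR169i and MIR169j are identical in sequence.

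**Figure D5:**
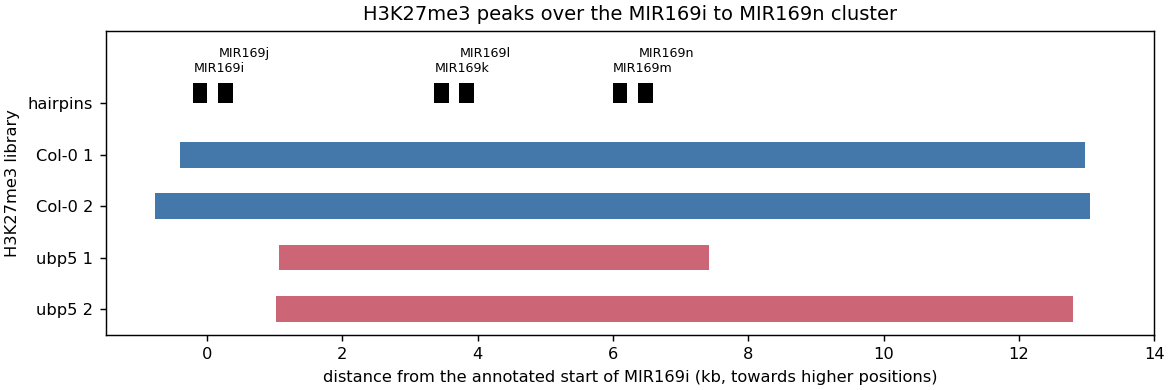
H3K27me3 peaks (bars) over the MIR169i to MIR169n cluster in each of the 4 libraries (rows, blue for Col-0 and red for ubp5), against the distance in kb from the annotated start of MIR169i. Black boxes are the hairpins, all on the minus strand. The Col-0 peaks (13378 and 13826 bp) span the 6 hairpins and the ubp5 peaks (6356 and 11784 bp) begin beyond MIR169j.

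At MIR169f, also on chromosome 3, H3K27me3 was separated between the genotypes and H2Aub was not. H3K27me3 was 625 and 529 bp in Col-0 and 0 bp in both ubp5 libraries. H2Aub was 0, 87 and 1167 bp in Col-0 and 1167, 862 and 1167 bp in ubp5, so the H2Aub range of Col-0 holds every ubp5 value and the genotypes overlap. With every deposited peak included, H3K27me3 of MIR169f in ubp5 was 89 and 538 bp, which overlaps Col-0, and H2Aub in Col-0 replicate 1 was 1150 bp in place of 0.

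MIR395a and MIR395b, adjacent on chromosome 1, had less H3K27me3 in ubp5. MIR395b had 1100 and 262 bp in Col-0 and 0 bp in both ubp5 libraries. MIR395a had 1093 and 392 bp in Col-0 and 244 and 26 bp in ubp5. At both genes the 2 Col-0 replicates differed from each other by more than Col-0 replicate 2 did from either ubp5 library, and with a score over 60 both genes were without a peak in Col-0 replicate 1.

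More H3K27me3 in ubp5 was found at MIR406, MIR8183, MIR169c, MIR397b and MIR10515. MIR8183 had 0 bp in both Col-0 libraries and 592 and 1117 bp in ubp5, under every threshold and with reduced lists. MIR406 had 0 bp in Col-0 and 755 and 971 bp in ubp5, and 414 bp appeared in Col-0 replicate 2 with every deposited peak. MIR406 had H2Aub only in ubp5 as well, at 390, 0 and 516 bp. Its H2Aub was 0 bp in every library under the reduced lists, and with a score over 60 it was left in ubp5 replicate 3 (516 bp) and H3K27me3 in ubp5 replicate 1 (755 bp).

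MIR169c had 865 and 733 bp in Col-0 and all 1411 bp in both ubp5 libraries, in contrast to MIR169i of the same family. MIR397b, whose product acts on laccase genes, had 18 and 0 bp in Col-0 and 199 and 594 bp in ubp5. MIR10515 had 90 and 354 bp in Col-0 and 539 and 540 bp in ubp5. With 2 libraries per genotype these loci are separated only by whether a peak was called in the window or where its edges lay. No test at a single gene could go below a p of 0.333 (exact permutation).

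Some members followed the replicate number rather than the genotype. H3K27me3 lay over MIR854a, MIR854b, MIR854c and MIR854e in replicate 1 of both genotypes and in neither replicate 2, while MIR172a, MIR166e, MIR166f and MIR5653 had it in replicate 2 of both and in neither replicate 1. The MIR854 windows are repeated sequence: under 90% of their 100-base stretches were unique in the nuclear genome. Of the outside members 18 were of this kind, the MIR8167 genes b, d, e and f among them, and with uniquely mapped reads their cover is uncertain.

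The 71 inside MIR genes lie in 68 different coding genes, 36 in an intron alone, 20 in an exon without coding sequence and 15 including coding sequence. In Col-0, 21 (29.6%) had H2Aub, against 50.1% of all nuclear genes, and 16 (22.5%) had H3K27me3, against 25.2%. In ubp5, 28 (39.4%) had H2Aub, against 68.4% of all nuclear genes, and 20 (28.2%) had H3K27me3, against 24.7%. Of the 16 with H3K27me3 in Col-0, 14 lay in a host gene whose body was marked too, and of the 21 with H2Aub, 19 did. An inside gene lies within its host by definition, so any peak over the MIR gene itself also lies over the host body. These counts follow largely from that. Of the 71, 16 had a host marked with H3K27me3 in Col-0 and 31 a host marked with H2Aub. The marks of a MIR gene and its host cannot be told apart here.

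MIR822, MIR398b and MIR420 had the longest H2Aub cover among the inside genes. MIR398b, in an exon without coding sequence on the strand opposite its host, had all 1116 bp covered in the 6 libraries and no H3K27me3, as MIR398c did. MIR420, in an intron, had 1100 bp of H2Aub in the 6 libraries together with 1029 and 939 bp of H3K27me3 in Col-0 and 852 and 900 bp in ubp5. MIR822 had 1337 bp of H2Aub in 5 libraries and 1161 bp in ubp5 replicate 2.

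MIR5635d, MIR841a and MIR833a led the inside genes for H3K27me3. MIR833a had 1187 bp covered in the 4 libraries, with H2Aub of 0, 0 and 239 bp in Col-0 and 552, 282 and 398 bp in ubp5, which do not overlap. MIR5635d had 1238 bp covered by H3K27me3 in the 4 libraries and MIR841a, within HTA4, 1212, 1212, 1212 and 1164 bp. MIR408, a copper-regulated gene on the strand opposite an exon of its host, had 1218 bp of H2Aub in each Col-0 library and 1218, 198 and 1218 bp in ubp5, and no H3K27me3.

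The genes that make, use and degrade miRNAs were set beside the MIR genes. Of 22 listed, 21 matched 1 annotated gene, by symbol except for URT1, whose annotated symbol is its locus tag. HST, which names a pair of genes, was left out. In Col-0 10 of the 21 had H2Aub, where 50.1% of all nuclear genes did, and in ubp5 15 did, where 68.4% of all nuclear genes did, so the list lay near the background. H3K27me3 was on 2 in each genotype, where 25.2% and 24.7% of all nuclear genes had it. AGO1, the main slicer, and DDL, which assists DCL1, were the 2 with H3K27me3: AGO1 had 439 and 541 bp in Col-0 and 607 and 621 bp in ubp5, and DDL had 923 and 949 bp in Col-0 and 945 and 912 bp in ubp5. SE, CBP20, TGH, HESO1, SDN1 and SDN3 were marked with H2Aub only in ubp5, a direction that 21.4% of all nuclear genes shared, and SDN2 only in Col-0, at 0, 1101 and 1396 bp against 0, 0 and 1019 bp in ubp5.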

How the data were processed

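Peak lists from 10 ChIP-seq libraries were used, and the 6 input samples were not analysed here as separate files. The authors aligned reads to TAIR10 with STAR 2.7.8a, removed duplicates with Picard, kept unique reads and called broad peaks in each library with MACS3 3.0.0 against input. Each deposited peak has a score (10 times −log10 q, cut to a whole number), a mean fold enrichment ratio and a mean −log10 q. The deposited H2Aub lists begin at −log10 q 3.00 and have gaps in their peak numbers, while the deposited H3K27me3 lists begin at 1.01 to 1.05 with no gap. For this reason peaks with a score over 30 were used for both marks. Lists are not scaled for depth. Reads per library are given by the study, with the fewest in ubp5 H2Aub replicate 2, and were not used here.

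Gene positions and hairpin and mature sequences were taken from RefSeq TAIR10.1. Chromosomes were joined by number, since the names differ, and every peak ended within the length of its reference chromosome. The lists name no chromosome lengths, so the builds were compared no further.

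Covered lengths were computed with Python 3.11.15, NumPy 2.4.6 and pandas 2.3.3, and the functions were tested on simulated lists. Each of the 10 comparisons of genotypes used an exact two-sided permutation test over libraries, with Benjamini-Hochberg adjustment. Named genes were the 5 with the highest mean cover per mark, up to 5 per mark and direction whose libraries did not overlap between genotypes, up to 5 with both marks in all 10 libraries, a fixed set of conserved genes, and the top 3 inside genes per mark. Uniqueness was the share of 100-base stretches of the window found once in the nuclear genome. The members, role lists and tests were chosen with earlier results of these data known. Alternatives were other score thresholds, equal covered length, other windows, fewer members, a replicate block and leaving out libraries.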

Additional observations from a re-analysis of the deposited data

How the results depend on the processing

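Across 16 results, 217 alternative values were computed, of which 156 kept their direction, or for counts stayed within 1.5 times the value reported. Some of the 156 could not change. A replicate block leaves each difference as it was, and with 2 H3K27me3 libraries a peak in every library is the main rule itself. The H3K27me3 outside share with a clear upstream window, at 0, was counted as kept. The 156 are thus not a measure of robustness. None of the 10 tested comparisons passed 0.05 under any alternative, which the sample sizes do not allow. Differences are ubp5 minus Col-0.

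With lists reduced to the smallest covered length, the difference for outside MIR genes became -0.985 points in the H2Aub share, -0.291 (log2) in the H2Aub share relative to all genes, -1.96 points in the H2Aub covered gene length, 4.01 points in the H3K27me3 share and 1.36 points in both the gene and the upstream length covered by H3K27me3. The H2Aub share relative to all genes was -0.287 over the annotated gene only, -0.356 at the start base, -0.0705 with a peak over at least 50% of the window and -0.169 where the upstream window was clear of coding genes. The same value for H3K27me3 was -0.0199 with all deposited peaks and -0.0359 over the gene only, and the inside share of H3K27me3 was -2.11 points with at least 50% covered and 0.704 over the gene only and at the start base.

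The count of outside MIR genes marked with H2Aub only in ubp5 (24) was 8 with reduced lists, 14 over the gene only, 13 at the start base, 14 with at least 50% covered and 12 with a clear upstream window; that only in Col-0 (9) was 5 with a score over 60. For H3K27me3, the count only in ubp5 (8) was 15 with reduced lists, 5 over the gene only, 4 at the start base, 4 with at least 50% covered and 5 with a clear upstream window, and that only in Col-0 (6) was 3 with a clear upstream window. Both marks in Col-0 (28) were on 11 genes with a score over 60, 13 with reduced lists, 8 with at least 50% covered and 18 with a peak in every library, and both marks in ubp5 (29) on 14, 11, 6 and 15 in the same order, and on 19 at the start base.

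Leaving out each library in turn gave ranges, and an H2Aub genotype with 2 libraries left needs a peak in both, while an H3K27me3 genotype with 1 left needs it there alone. For H2Aub in outside MIR genes, the share ranged from -1.76 to 16.0, the value relative to all genes from -0.210 to 0.223, the covered gene length from -3.12 to 7.43 and the upstream length from -0.612 to 7.96, each lowest without ubp5 replicate 3 and highest without ubp5 replicate 2. The inside share ranged from 2.58 to 15.3 for H2Aub and from 2.11 to 6.34 for H3K27me3. For H3K27me3, the outside share ranged from -2.32 to 1.48 and the relative value from -0.0228 to 0.0860. Counts ranged from 8 to 44 and from 1 to 30 (H2Aub in ubp5 alone and in Col-0 alone), from 4 to 16 and from 4 to 18 (H3K27me3), and from 18 to 33 and 15 to 32 (both marks in Col-0 and in ubp5).

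A pair of alternatives was chosen after seeing the data: outside members with at least 90% unique 100-base stretches (219 of 237), and leaving out both H2Aub libraries of lowest cover. Neither changed a direction or moved a count by over 1.5 times. With a replicate block (exact sign-flip test), the outside H2Aub share differed by 7.45 points (exact p = 0.5). The block can alter only p and not a difference, and it changed no call. The numbers are not known to pair samples: over outside MIR genes the deviations of same-numbered libraries correlated at -0.048, -0.264 and 0.261 for H2Aub and at 0.650 for H3K27me3, where 2 libraries give 1 value (0.113 over all nuclear genes). A gene without an H2Aub peak in a library of low cover is not shown to lack the mark.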
